A study of Homo sapiens with 11 samples.

Results

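The 6 genes NPM1, NCL, FBL, NOP56, UBTF and POLR1A, whose products build ribosomes in the nucleolus, were examined for histone marks and for the antibody against mdig in MDA-MB-231 cells with and without mdig. They were chosen by name, and their members in the data are the intervals of 10 deposited lists that overlap the hg19 span of each gene extended by 5 kb on both sides. These were 53 of 229591 intervals on chromosomes 1 to 22 and X. MDA-MB-231 is a human triple-negative breast cancer line, and mdig, also called MINA53 or RIOX2, is an oxygenase with a JmjC domain. The KO cells made no mdig protein and the WT cells had normal mdig, and both came out of CRISPR-Cas9 work and grew in medium with blasticidin, per the labels' protocols. Whether the KO cells were 1 clone is not given in the sources used here. Chromatin of each genotype was precipitated once with antibodies against H3K4me3, H3K36me3, H3K9me3, H4K20me3 and mdig (named MINA in the labels), so every KO and WT value below comes from 1 library and no difference was tested.

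An interval is a stretch that the submitters' caller found enriched, and its length says nothing of the height of the signal. The 10 lists held between 7859 (MINA in KO cells) and 53375 intervals (H3K9me3 in KO cells), their read depth is unknown, and a list called from more reads tends to hold more and wider intervals. Over the whole series the H3K4me3 intervals covered 101.9 Mb in KO cells and 120.7 Mb in WT cells, the MINA intervals 35.7 Mb and 119.6 Mb, and the H4K20me3 intervals 149.6 Mb and 67.2 Mb. The KO cells made no mdig, per the labels, and their MINA list is given as what this antibody yielded without it. Whether it holds the background of the WT list was not tested.

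Ribosome production starts when RNA polymerase I copies the ribosomal DNA inside the nucleolus. UBTF binds that DNA and helps to place the polymerase, and POLR1A is its largest subunit. The transcript is modified at many positions by small nucleolar RNA particles. In some of these particles, but not all, FBL is the methyltransferase and NOP56 a core scaffold protein. NCL binds the young transcript, and NPM1 is a chaperone of the outer nucleolus where subunits are assembled. RefSeq places 3 small nucleolar RNAs inside NCL (SNORA75, SNORD20 and SNORD82) and 5 inside NOP56 (SNORD110, SNORA51, SNORD86, SNORD56 and SNORD57). Transcription of these genes thus also yields guides for small nucleolar RNA particles. H3K4me3 marks active promoters, H3K36me3 lies over transcribed gene bodies, and H3K9me3 and H4K20me3 are marks of silent heterochromatin. Mdig itself is found in the nucleus and nucleolus and is known to hydroxylate a ribosomal protein.

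The genes lie on chromosomes 5 (NPM1, 170814700 to 170837890), 2 (NCL, 232319450 to 232329210, and POLR1A, 86253450 to 86333280), 19 (FBL, 40325090 to 40337060), 20 (NOP56, 2633170 to 2639040) and 17 (UBTF, 42282400 to 42297050) of hg19. NPM1 and NOP56 are on the plus strand and the others on the minus strand. The start site is the end of the span at which the gene begins, and distances are counted from it in the direction of the gene.

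The promoters are shown because the marks divided the genes at their start sites. Each sequence is from RefSeq on GRCh38.p14, runs from 250 bases before the start site to 20 after it, and has in capitals the GC boxes, CCAAT boxes and E-boxes on either strand. The letters searched were GGGCGG for the GC box. For the E-box they were CACGTG, and the CCAAT box is spelled by its name. All 6 genes were found in the RefSeq promoter table. For NPM1 and UBTF, with 2 promoters each in the table, the one is shown whose distance to the far end of the gene was nearest to the span length. The first 3 genes had H4K20me3 over the start site in KO cells and none in WT cells. They are NPM1 at chr5:171387599-171387868 (plus strand), NCL at chr2:231464465-231464734 (minus strand) and NOP56 at chr20:2652382-2652651 (plus strand).
NPM1: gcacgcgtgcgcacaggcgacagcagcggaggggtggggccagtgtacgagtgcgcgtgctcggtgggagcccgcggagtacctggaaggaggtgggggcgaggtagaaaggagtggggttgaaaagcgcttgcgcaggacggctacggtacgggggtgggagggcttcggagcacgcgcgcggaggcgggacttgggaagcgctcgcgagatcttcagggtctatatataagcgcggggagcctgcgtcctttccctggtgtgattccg
NCL: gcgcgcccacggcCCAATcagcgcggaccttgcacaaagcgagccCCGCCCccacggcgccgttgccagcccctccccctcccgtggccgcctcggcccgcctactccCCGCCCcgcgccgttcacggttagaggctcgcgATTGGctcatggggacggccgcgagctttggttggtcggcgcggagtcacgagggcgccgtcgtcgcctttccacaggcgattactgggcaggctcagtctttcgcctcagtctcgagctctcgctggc
NOP56: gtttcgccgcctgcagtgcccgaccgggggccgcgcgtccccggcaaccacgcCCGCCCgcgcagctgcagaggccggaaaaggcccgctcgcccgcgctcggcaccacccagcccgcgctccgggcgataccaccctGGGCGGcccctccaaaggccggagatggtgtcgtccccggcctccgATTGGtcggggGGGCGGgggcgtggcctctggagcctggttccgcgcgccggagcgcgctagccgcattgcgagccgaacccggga

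The other 3 had no H4K20me3 interval in KO cells. They are FBL at chr19:39846360-39846629 (minus strand), UBTF at chr17:44219656-44219925 (minus strand) and POLR1A at chr2:86105867-86106136 (minus strand).
FBL: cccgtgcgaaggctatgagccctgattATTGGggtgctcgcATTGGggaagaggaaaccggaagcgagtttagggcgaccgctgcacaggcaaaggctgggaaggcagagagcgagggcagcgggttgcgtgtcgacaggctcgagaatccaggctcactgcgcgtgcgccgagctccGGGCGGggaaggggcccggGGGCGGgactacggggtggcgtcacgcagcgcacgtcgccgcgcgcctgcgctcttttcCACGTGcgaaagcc
UBTF: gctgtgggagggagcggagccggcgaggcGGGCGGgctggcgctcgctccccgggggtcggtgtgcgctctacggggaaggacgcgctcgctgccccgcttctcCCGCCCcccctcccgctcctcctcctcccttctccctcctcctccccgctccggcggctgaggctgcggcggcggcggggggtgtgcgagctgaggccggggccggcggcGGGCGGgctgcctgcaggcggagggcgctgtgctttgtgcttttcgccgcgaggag
POLR1A: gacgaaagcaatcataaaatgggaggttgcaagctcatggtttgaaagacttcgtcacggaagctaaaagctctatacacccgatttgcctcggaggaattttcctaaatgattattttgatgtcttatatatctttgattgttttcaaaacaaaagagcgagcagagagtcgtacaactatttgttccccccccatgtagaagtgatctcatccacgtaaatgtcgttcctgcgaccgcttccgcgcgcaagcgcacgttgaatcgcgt

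In windows of 300 bases (to 50 bases after the start site), GC boxes were found in NCL, NOP56, FBL and UBTF, 4 of 6 genes, and in 45.0% of the 35114 promoters of the table. CCAAT boxes were found in NCL, NOP56 and FBL, 3 of 6, against 34.6% of all promoters. FBL alone held an E-box, 7 bases after the start, as did 7.26% of all promoters. None of the 6 held TATAAA, which was present in 11.5% of all promoters. No motif overlapped another of these in the 6 windows. Each group held a promoter with none of the 4 motifs, NPM1 among the genes with H4K20me3 in KO cells and POLR1A among the others. NOP56 held the most CpG, 42 in 300 bases. POLR1A stood apart by base composition, with 44.7% GC and 19 CpG, where the other 5 had 66.0% to 78.3% GC and at least 33 CpG. The median of all promoters was 58.7% GC and 14 CpG. The printed windows were not carried over to hg19, so no motif was assigned a place within an interval.

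**Figure D1:**
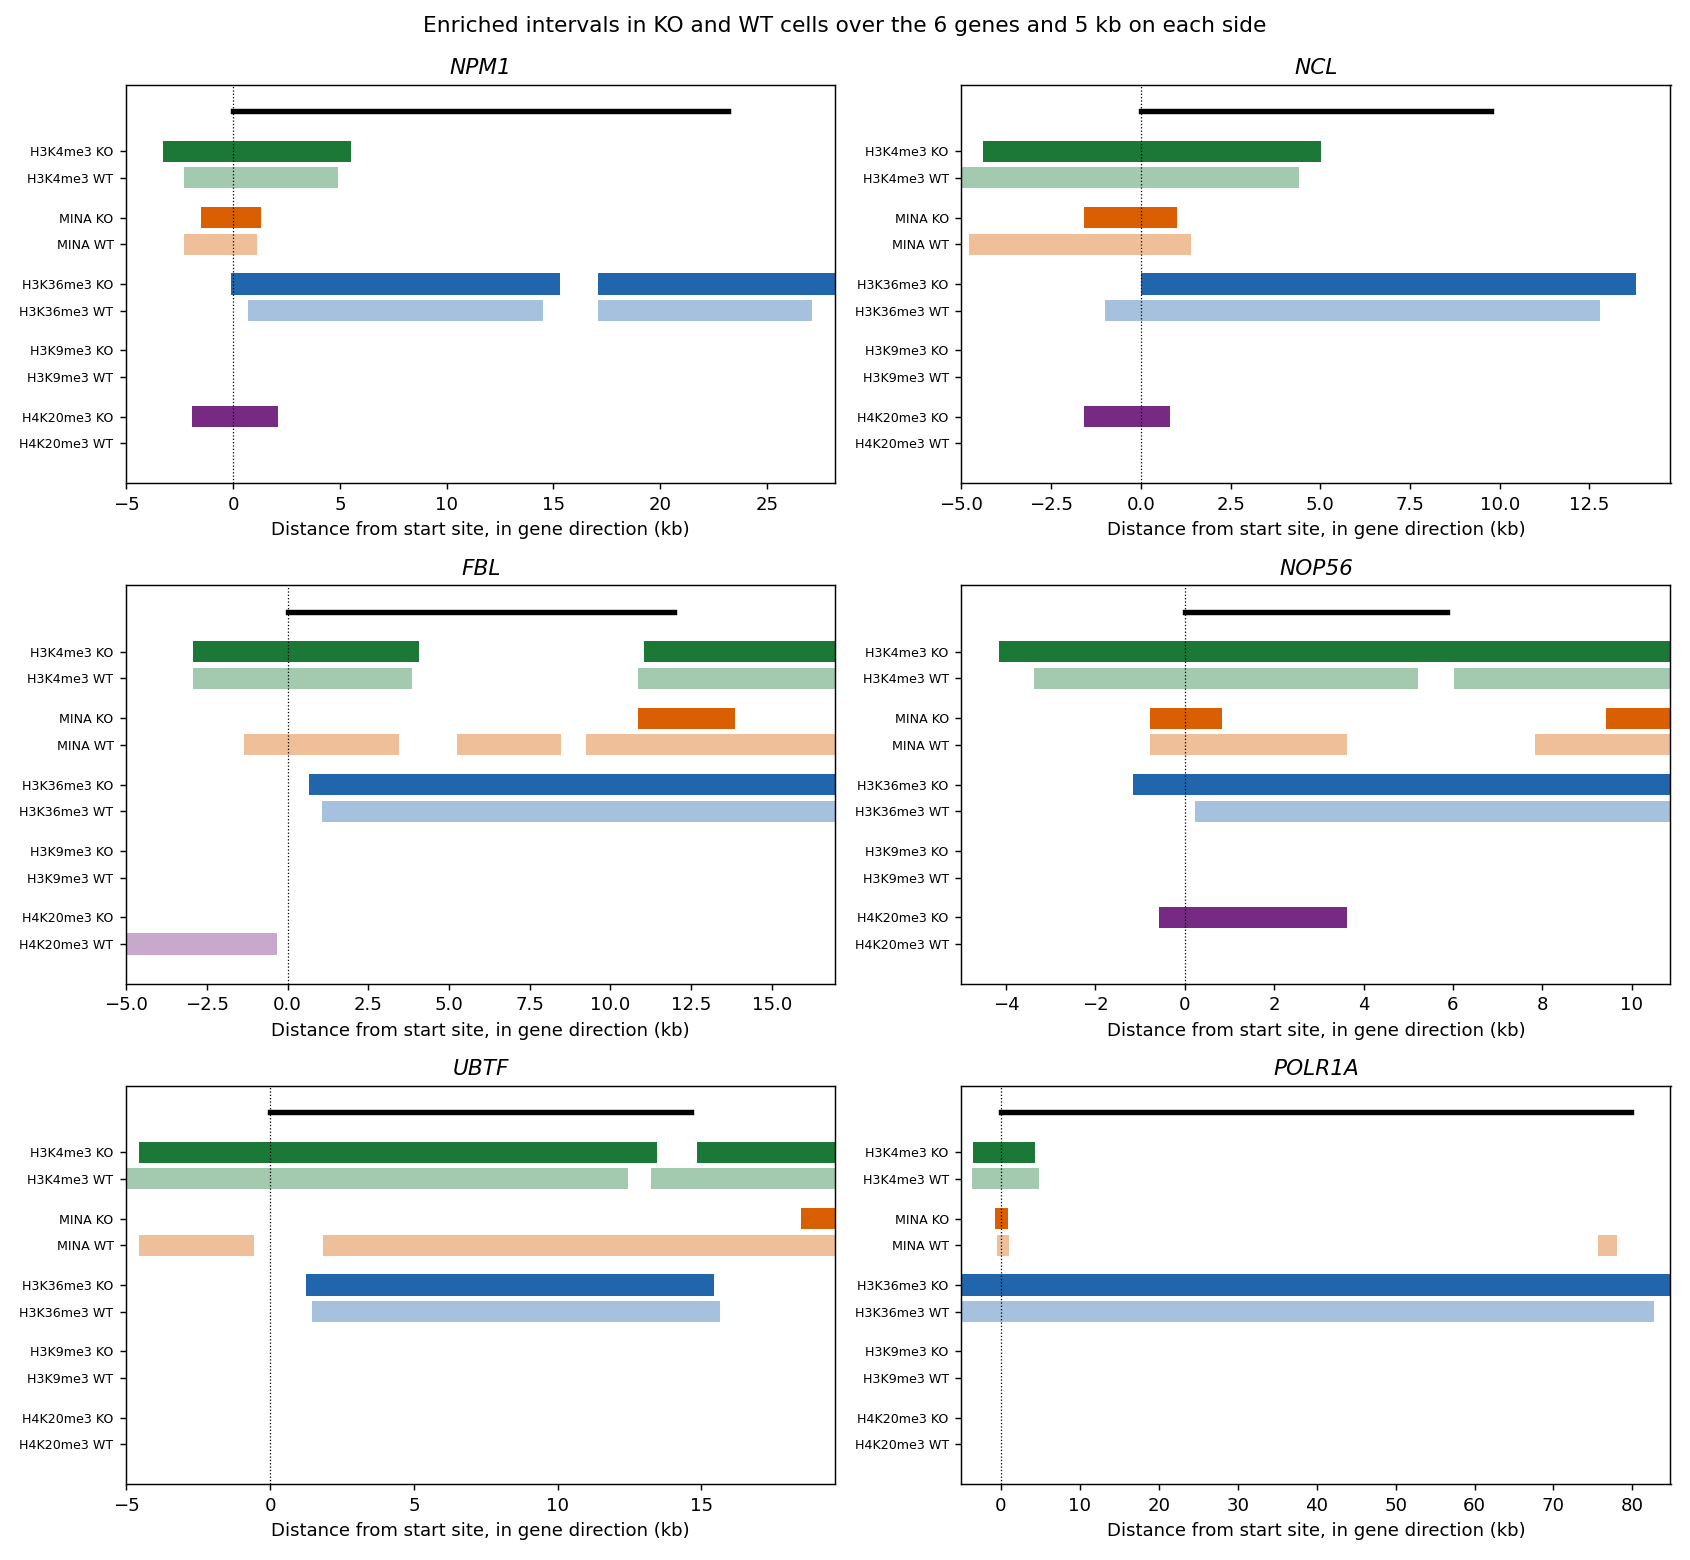
Maps of the 6 genes. The x axis is the distance from the start site in kb in the direction of the gene, the black bar on top is the gene span, and each coloured bar is an interval of 1 list, KO above WT in a paler shade, cut at the ends of the panel (5 kb beyond the span). H3K4me3 covers all 6 start sites in both genotypes, no H3K9me3 is seen, MINA covers less in KO cells in each panel, and H4K20me3 lies over 3 start sites in KO cells.

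H3K4me3 covered the start sites of all 6 genes in both KO and WT cells. Over the 6 extended spans, 205.3 kb in all, it covered 76.8 kb in KO cells and 75.4 kb in WT cells, a ratio of 1.02, and 72.0 kb were common to both. The same ratio over the whole series was below 1. These intervals were wide, since 4 of the 6 were above 7.8 kb in WT cells, the width that 75% of the WT list did not exceed, and NPM1 and FBL were above the median of 5.4 kb.

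UBTF had the longest mark of the 6 in WT cells, with an interval of 18.0 kb in KO cells and 17.8 kb in WT cells over its start. It covered most of the gene, reaching 13.4 kb into it in KO cells and 12.4 kb in WT cells. A second interval, of 23.2 kb in KO cells and 24.4 kb in WT cells, began at its far end, where RefSeq has ATXN7L3 as the next protein-coding gene. POLR1A had 7.80 kb in KO cells and 8.60 kb in WT cells. RefSeq places the start of PTCD3, transcribed away from POLR1A, 0.348 kb from it, so that this interval spans both starts and cannot be assigned to 1 of them.

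FBL had 7 kb in KO cells and 6.80 kb in WT cells, with the edge before the gene at the same place. A second interval of 15.8 kb in KO cells and 16.6 kb in WT cells overlapped the end of FBL and continued on the side of DYRK1B, whose start RefSeq places 0.295 kb beyond FBL. NOP56 gave the only large difference of the 6. In KO cells 1 interval of 18.4 kb ran from 2629001 to 2647400, and in WT cells the same stretch was split into 8.60 kb over the start and 8.40 kb on the side of the neighbour IDH3B. The WT intervals were 0.8 kb apart, which is the smallest gap in any of the 10 lists, and once intervals within 5 kb were joined the widths were 18.4 kb in KO cells and 17.8 kb in WT cells.

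NCL had 9.40 kb in KO cells and 9.40 kb in WT cells, displaced by 0.6 kb toward the gene in KO cells. NPM1 had 8.80 kb in KO cells and 7.20 kb in WT cells, and reached further on both sides in KO cells, by 1 kb before the gene and by 0.6 kb inside it. The edge inside the gene lay further in for KO than for WT cells at NPM1, NCL, FBL and UBTF by 0.2 to 1 kb, and was 0.6 kb shorter at POLR1A.

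Among genes whose start-site intervals paired one to one, NPM1 and FBL were wider in KO cells, NCL was equal and POLR1A was narrower. Of all 15690 such H3K4me3 pairs 27.4% were wider and 65.6% narrower in KO cells. None of these 4 genes differed by 1.5-fold, the size at which 3.89% of all pairs were wider and 15.6% narrower. NOP56 and UBTF did not pair one to one, because their KO interval met 2 WT intervals. No WT start-site interval of the 6 was absent from KO cells, where 14.9% of all WT H3K4me3 intervals had none. For 6 intervals this is near that share, which was taken over all widths.

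**Figure D2:**
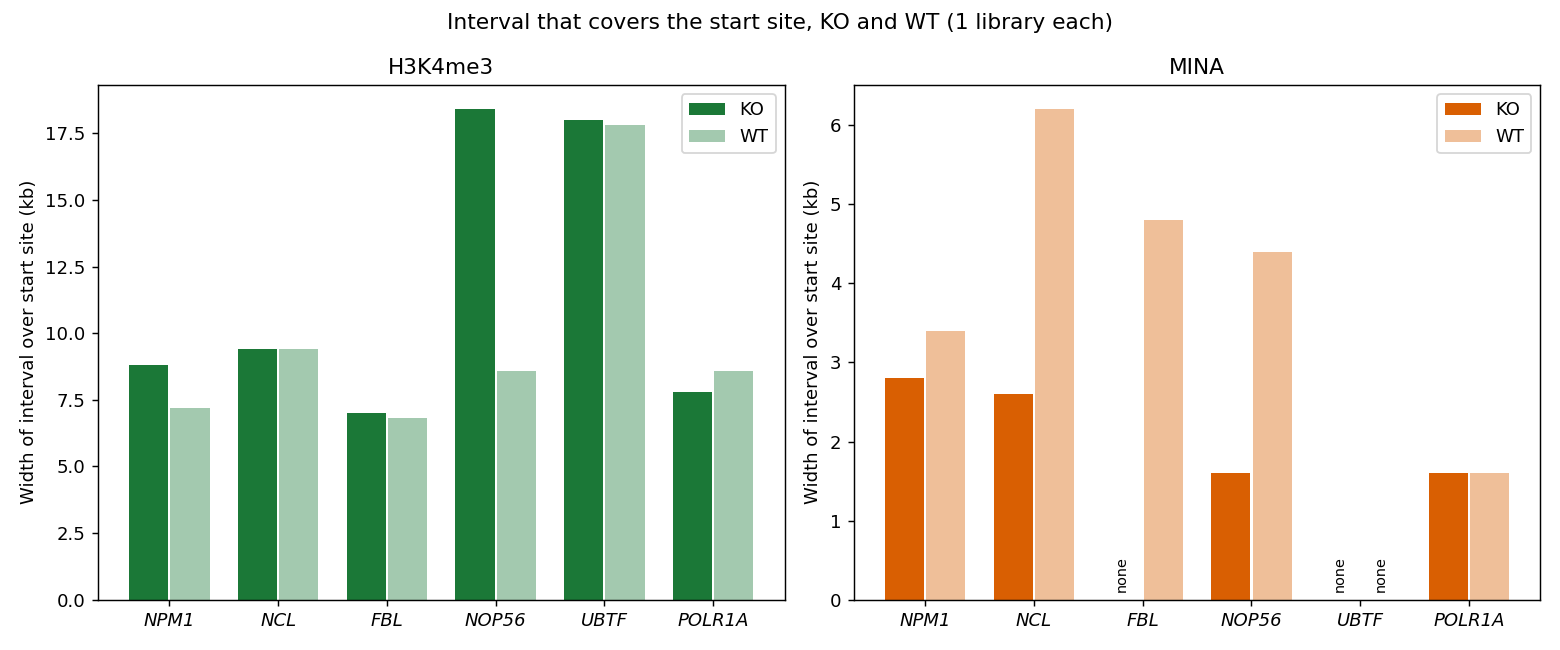
Width in kb of the interval that covers the start site, for H3K4me3 (left) and MINA (right), with the KO bar left of the paler WT bar for each gene and 1 library per bar. H3K4me3 widths are close in KO and WT cells except at NOP56, while MINA is narrower in KO cells at NPM1, NCL and NOP56, missing there at FBL, equal at POLR1A and on no start site at UBTF.

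The MINA antibody gave intervals within 5 kb of all 6 genes in both KO and WT cells, and their summed length was lower in KO cells. It covered 14.2 kb of the 6 spans in KO cells and 58.6 kb in WT cells, a ratio of 0.243, with 13.8 kb common to both. The ratio was 0.544 in the 4 kb around the start sites and 0.161 over the genes without the added 5 kb. The lower length was shared with the whole series, in which MINA covered 35.7 Mb in KO cells and 119.6 Mb in WT cells. The 6 spans thus had 6.94% of their length covered in KO cells and 28.5% in WT cells. All 6 WT H3K4me3 intervals over the start sites met MINA in WT cells, as did 56.8% of all WT H3K4me3 intervals. Of those wider than 7.8 kb, the class of 4 of the 6, 4377 of 4715 did, so this is common for wide intervals.

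The most MINA in WT cells lay over UBTF, the factor that binds ribosomal DNA. Of its extended span 1.20 kb (4.87%) was covered in KO cells and 21.8 kb (88.4%) in WT cells. In WT cells an interval of 35.6 kb, from 42259601 to 42295200, took in nearly all of the gene and the sequence behind it, and was number 240 by width among 16353. Another of 4 kb lay before the gene, and neither covered the start site itself. The KO interval, of 4.8 kb from 42273801 to 42278600, lay behind the end of the gene and overlapped only the added 5 kb. With 10 kb added instead, the KO over WT ratio of UBTF was 0.179 in place of 0.0551. At POLR1A a short interval of 1.6 kb in KO cells and 1.6 kb in WT cells sat on the start site, displaced by 0.2 kb. A further 2.40 kb near the far end of the gene was found in WT cells alone.

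FBL had 3 kb in KO cells and 15.7 kb in WT cells within its extended span. The WT intervals lay on the start site (4.8 kb), inside the gene (3.20 kb) and over its end, on the side of DYRK1B (13.8 kb), and the KO interval lay at that end and not on the start of FBL. NOP56 had 1.6 kb over its start in KO cells and 4.40 kb in WT cells, which began at the same base and reached 0.83 kb into the gene in KO cells and 3.63 kb in WT cells. A second MINA interval on the side of IDH3B was 3.80 kb wide in KO cells and 4.6 kb in WT cells.

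NCL had 2.6 kb in KO cells and 6.20 kb in WT cells. The KO interval was 3.2 kb shorter on the side before the gene and 0.4 kb shorter inside it. NPM1 had 2.80 kb in KO cells and 3.40 kb in WT cells. Its ratio of 0.824 was the highest of the 6, and without the added 5 kb it was 1.18, which turns the direction, since inside the gene the interval reached 1.3 kb in KO cells and 1.1 kb in WT cells.

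Of the 11 MINA intervals of WT cells at the 6 genes, 4 had none of KO cells on them (at FBL, UBTF and POLR1A), against 61.2% of the whole WT list. None of the 7 in KO cells lacked one of WT cells, against 16.9% of the KO list, which for 7 intervals is near that share.

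At the start sites MINA met the H3K4me3 interval in both genotypes at NPM1, NCL, NOP56 and POLR1A and in WT cells alone at FBL and UBTF. Of all WT H3K4me3 intervals 29.6% met MINA in both genotypes and 27.2% in WT cells alone. Among WT H3K4me3 intervals with MINA in WT cells, 47.9% had none in KO cells, so 2 of 6 genes is near that background. Of those wider than 7.8 kb 37.8% had none, and UBTF is in this class while FBL is not. In the one-to-one MINA pairs of the whole series the median KO over WT width ratio was 0.778. The start-site intervals had width ratios of 0.824 at NPM1, 0.419 at NCL, 0.364 at NOP56 and 1 at POLR1A.

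H3K36me3 lay over the bodies of all 6 genes in both genotypes. It covered 172.7 kb of the 6 spans in KO cells and 166.0 kb in WT cells, a ratio of 1.04, with 164.8 kb common to both. With 5 kb added, no gene had a ratio below 1 in this mark. In the 4 kb around the start site NCL had 0.666, POLR1A 1, UBTF 1.36, FBL 1.43, NPM1 1.62 and NOP56 1.79. With intervals within 5 kb joined UBTF had 0.780. All 6 start-site H3K4me3 intervals met H3K36me3 in both genotypes, where 36.7% of all WT H3K4me3 intervals did.

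POLR1A lay inside 1 interval of 174.4 kb in KO cells, from 86248201 to 86422600, and of 160.0 kb in WT cells, from 86250601 to 86410600. These were number 21 by width in the KO list and number 24 in the WT list, and the interval passed through the start site and on to the side of PTCD3. The gene and its flanks were 100% covered in KO cells and 97.6% in WT cells. UBTF had 14.2 kb in KO cells and 14.2 kb in WT cells, displaced by 0.2 kb, beginning 1.25 kb after the start in KO cells and 1.45 kb after it in WT cells. FBL had 21.6 kb in KO cells and 20.6 kb in WT cells, running on toward DYRK1B.

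NOP56 had 12.8 kb in KO cells and 11.2 kb in WT cells. Part of this lay beyond the end of the gene at 2639040, on the side of IDH3B. It ended at 2644800 in KO cells and at 2644600 in WT cells. The KO interval began 1.17 kb before the start site and the WT interval 0.231 kb after it. NCL had 13.8 kb in KO cells and 13.8 kb in WT cells. Here the WT interval was the one that passed the start, by 0.99 kb. The KO interval began 10 bases after the start, which is less than a step of the 200-bp grid. NPM1 had a pair of intervals in each genotype, of 15.4 and 14.6 kb in KO cells and of 13.8 and 10.0 kb in WT cells, and the second began at 170831801 in both. The first ended at 170830000 in KO cells and at 170829200 in WT cells, and the second at 170846400 in KO cells and at 170841800 in WT cells. The edge of H3K36me3 thus lay nearer to the start or before it in KO cells at NPM1, FBL, NOP56 and UBTF, and in WT cells at NCL, by 0.2 to 1.4 kb.

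The part of the H3K4me3 length that also carried H3K36me3 was lowest at NCL in KO cells, with 53.2%, against 57.4% in WT cells. At UBTF it was 56.1% in KO cells and 56.2% in WT cells, and at NPM1 63.6% in KO cells and 58.3% in WT cells. At FBL it was 72.1% in KO cells and 69.0% in WT cells, and at NOP56 80.1% in KO cells and 73.2% in WT cells. POLR1A had 100% in both. Over the extended spans, more of the H3K4me3 length than not thus lay under H3K36me3 in every gene. At FBL, NOP56 and UBTF this length includes H3K4me3 on the side of a neighbour. The start-site interval of FBL alone lay for the smaller part under H3K36me3. It ran from 40333001 to 40340000 in KO cells, where H3K36me3 ended at 40336400. In WT cells it ran from 40333201 to 40340000, and H3K36me3 ended at 40336000.

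No H3K9me3 interval overlapped any of the 6 extended spans in either genotype. The nearest one lay 10.6 kb (POLR1A) to 307.1 kb (UBTF) from the gene in KO cells and 8.45 kb (POLR1A) to 344.8 kb (UBTF) in WT cells. None of the 6 WT H3K4me3 intervals over the start sites met H3K9me3 of either genotype. Among all WT H3K4me3 intervals 6.81% met H3K9me3 of KO cells and 5.88% met that of WT cells. For these intervals 0 of 6 is thus near the background, and no such share was computed for spans.

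H4K20me3, unlike H3K9me3, was found at 3 start sites in KO cells and near 1 in WT cells. At NPM1 an interval of 4 kb from 170812801 to 170816800 covered the start in KO cells, and no WT interval lay within 1371.5 kb of the gene. At NCL an interval of 2.40 kb from 232328401 to 232330800 did so, where the nearest WT interval was 22.4 kb away. At NOP56 an interval of 4.20 kb from 2632601 to 2636800 did so, and the nearest WT interval was 31.8 kb away. All 3 intervals lay wholly within H3K4me3 of KO cells and all 3 met a MINA interval of KO cells.

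FBL showed the opposite arrangement. No H4K20me3 interval of KO cells lay within 44.3 kb of it, and in WT cells 10.0 kb from 40337401 to 40347400 began 341 bases before the start site and extended away from the gene. Of the part within the extended span, 55.8% lay on WT H3K4me3 and 21.5% on WT MINA. UBTF and POLR1A had none in either genotype. All 3 KO intervals had no WT interval on them, as had 80.4% of the whole KO list, and the WT interval had none of KO cells, as had 44.6% of the WT list. In sum over the 6 spans H4K20me3 covered 10.6 kb in KO cells and 4.66 kb in WT cells, with nothing in common. The choice of flank decides this difference, since with 10 kb added it covered 10.6 kb in KO cells and 10.611 kb in WT cells.

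H4K20me3 was met in KO cells alone by 3 of the 6 start-site H3K4me3 intervals, against 18.2% of all WT H3K4me3 intervals and 25.3% of those wider than 7.8 kb. In that wide class are NCL and NOP56, which met it in KO cells alone, and UBTF and POLR1A, which did not. H4K20me3 was met in WT cells alone by 1 of 6, against 3.62% of all. With 6 genes chosen by name these counts describe the genes and say no more. The genes with H4K20me3 in KO cells alone were 3 of the 4 with MINA in both genotypes, and neither of the genes with MINA in WT cells alone was among them.

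The shares of the whole list by MINA are given beside these counts and not as support for them. Of the 5691 WT H3K4me3 intervals with MINA in both genotypes 27.4% met H4K20me3 in KO cells alone (95% Wilson confidence interval 26.3% to 28.6%), and of the 417 with MINA in KO cells alone 32.9% did (28.5% to 37.5%). It was 19.3% (18.2% to 20.3%) of 5225 with MINA in WT cells alone and 9.98% (9.34% to 10.7%) of 7877 with none. Among H3K4me3 intervals wider than 7.8 kb the shares were 29.6% with MINA in both genotypes, 32.7% with MINA in KO cells alone, 19.7% with MINA in WT cells alone and 14.9% without it. Among those of up to 3 kb the first and the third of these sets had like shares, of 18.5% (11.6% to 28.3%) with MINA in both genotypes and 18.1% (14.9% to 21.7%) with MINA in WT cells alone. The confidence intervals cover counting error only, and neighbouring intervals share their libraries. In the 5 Mb on each side of NPM1 both MINA and H4K20me3 covered more in KO than in WT cells. Around the other genes MINA covered less in KO cells. Whether such stretches or read depth enter these shares was not tested.

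**Figure D3:**
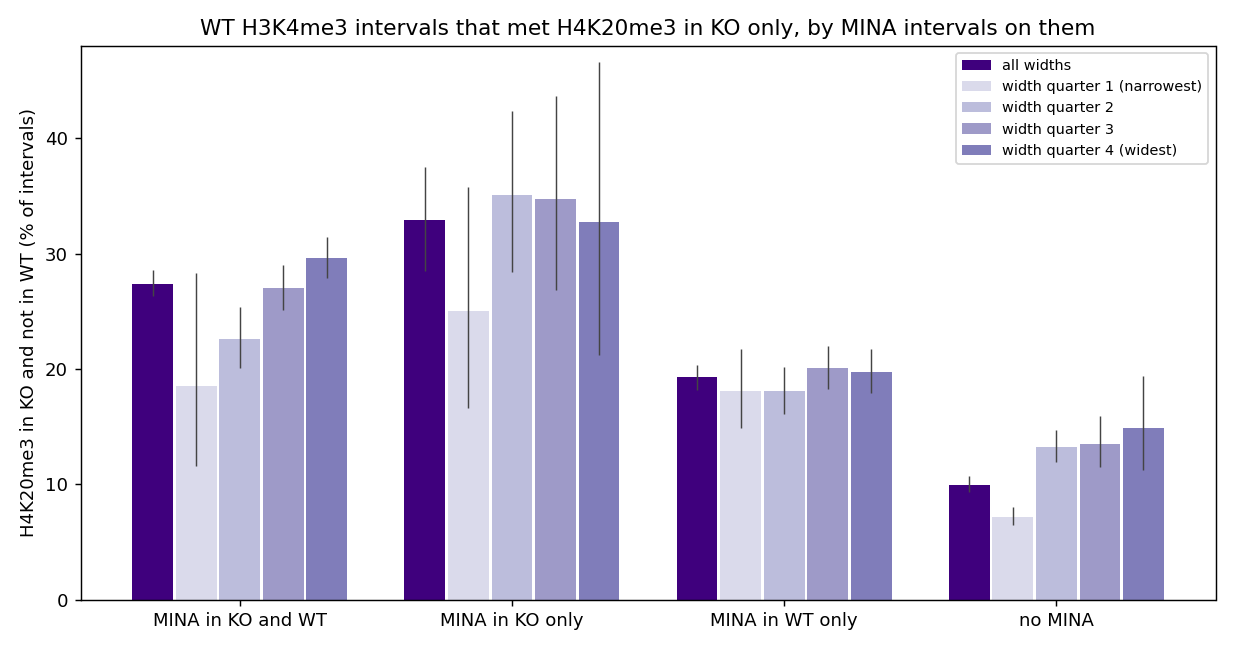
Percent of WT H3K4me3 intervals that met an H4K20me3 interval in KO cells and none in WT cells, by the MINA intervals on them (x axis) and by width class of the H3K4me3 interval (shade, 4 classes of about equal number and all widths), with 95% Wilson confidence intervals as error bars. The share is 27.4% with MINA in KO and WT cells and 9.98% with no MINA. NPM1, NCL, NOP56 and POLR1A belong to the first set of bars, FBL and UBTF to the set with MINA in WT cells only.

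The surroundings of each gene differed in the same measures. Before NOP56, which starts at 2633170, there is less than 5 Mb of chromosome 20, so its window was cut at the chromosome end. In the 5 Mb on each side of NPM1, with the gene left out, the length covered in KO cells over that in WT cells was 1.26 for H3K4me3, 1.44 for H3K36me3, 2.75 for MINA, 3.40 for H3K9me3 and 30.1 for H4K20me3 (1.61 Mb in KO cells and 0.0534 Mb in WT cells). The gene itself had ratios of 1.22 for H3K4me3, 1.11 for H3K36me3 and 0.824 for MINA. NPM1 was thus close to these surroundings in H3K4me3 and below them in MINA. Against the rest of chromosome 5 it was above in both, since the ratios there were 0.945 for H3K4me3 and 0.664 for MINA. The H3K9me3 ratio around NPM1 depended on the window and was 0.922 in 2 Mb on each side. In 5 Mb it was 3.89 around NOP56, 2.79 around POLR1A, 0.846 around FBL, 0.420 around UBTF and 0.359 around NCL.

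Around the other 5 genes the H3K4me3 ratio lay between 0.805 (NCL) and 0.955 (NOP56), below the gene's own ratio in each. The genes themselves had 1.00 at NCL and FBL, 1.12 at NOP56, 0.956 at UBTF and 0.907 at POLR1A, which was nearest to its surroundings at 0.888. For MINA the surroundings had 0.197 at NCL, 0.197 at FBL, 0.694 at NOP56, 0.192 at UBTF and 0.216 at POLR1A. NCL at 0.419 and POLR1A at 0.400 were above these values, FBL at 0.191 was nearly at them, and NOP56 at 0.409 and UBTF at 0.0551 were below. For H3K36me3 genes and surroundings were within 0.1 of each other except at NPM1.

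The H4K20me3 ratio of the surroundings was 30.1 at NPM1, 6.96 at NOP56 and 1.23 at NCL, the genes with H4K20me3 in KO cells alone. It was 1.12 at FBL, 0.982 at POLR1A and 0.795 at UBTF. This order depended on the window. In 2 Mb on each side NCL had 1.22 and UBTF 1.46, and over the rest of the chromosome NCL had 1.78 and FBL 1.82. NPM1 and NOP56 stayed the highest with both. The part of the surroundings in the H4K20me3 intervals of these genes was not tested. For the whole of chromosome 20, which holds NOP56, the ratio was 4.32 for H4K20me3, 0.423 for MINA and 0.885 for H3K4me3 without the gene.

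**Figure D4:**
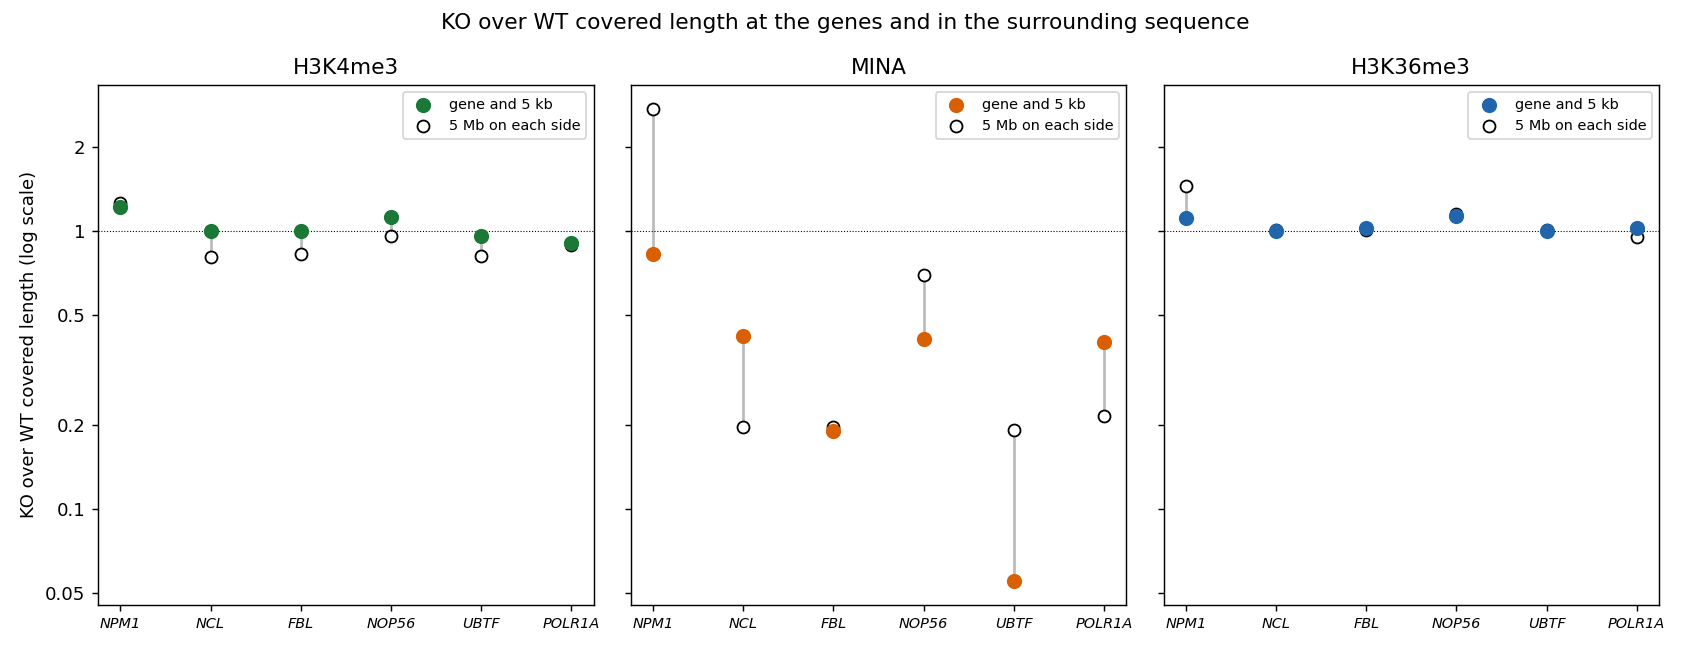
Covered length in KO cells over that in WT cells (log scale) for H3K4me3, MINA and H3K36me3 at each gene with its 5 kb flanks (filled) and in the 5 Mb on each side (open), 1 library per genotype. Before NOP56 the window was cut at the chromosome end. H3K4me3 is above its surroundings at 5 of 6 genes, and the MINA ratios run from 0.0551 at UBTF to 0.824 at NPM1.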

How the data were processed

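The submitters' processing notes name the read aligner BWA, SICER 1.1, which calls broad enriched intervals, and the build hg19, with no further detail. The deposited file holds interval positions for 10 ChIP libraries, with no height, score or p-value, and a merged list that was not used. Not given in the sources used here are the caller's window, gap and false discovery settings, its use of the input and any scaling for depth. Starts and ends lie on a 200-bp grid, and gaps are at least 800 bp. The input library was not analysed here.

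Spans were extended by 5 kb, and covered lengths, overlaps (at least 1 bp), one-to-one pairs and KO over WT ratios were computed with numpy 2.4.6 and scipy 1.17.1 in Python 3.11.15, from 1-based positions, leaving out Y and unplaced sequence. The interval arithmetic was tested on simulated data with known answers, which it returned in all 800 checks. With 1 library per group there are no replicates, no test and no p-value. Shares of all intervals have 95% Wilson intervals of at most 1.50 percentage points to either side, except in the comparison of H4K20me3 by MINA, where they are printed or drawn. The width classes were taken from the WT H3K4me3 list. All 6 genes are named by rule, neighbours only where an interval reaches them. Strands, neighbours and promoters are from RefSeq on GRCh38.p14, and no coordinates were converted. No hg19 annotation was used, so other genes of the pathway were not counted. The genes, lists and measures were chosen with earlier results of these data known. Alternatives were other flanks, joined intervals, a 4-kb window at the start site, a median over genes, a longer overlap and other surroundings.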

Additional observations from a re-analysis of the deposited data

How the results depend on the processing

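No paired analysis was possible because each antibody has 1 library per genotype. H4K20me3 depended most on the span, with KO over WT at 2.27 with a 5 kb flank, 0.999 with a 10 kb flank, which turns the direction as more of the WT interval before FBL and part of one beside POLR1A are then taken in, and 5.35 in the 4 kb around the start sites. Without a flank no gene had it in WT cells (0 of 6) and with 10 kb 2 had it, FBL and POLR1A, against 1 at 5 kb. With 10 kb POLR1A also met H3K9me3 of WT cells, 1 gene against 0. The MINA ratio of 0.243 was 0.161 without a flank and 0.544 in the 4 kb around the start sites, and the H3K36me3 ratio of 1.04 was 1.16 there. H3K36me3 was above the surroundings at 2 genes, and at 5 with the whole chromosome as surroundings. MINA at NPM1 turned from 0.824 to 1.18 without a flank, and at NCL it was 0.763 in place of 0.419 around the start site, where 4 genes had MINA in KO cells in place of 6. NPM1 was above the rest of chromosome 5 in MINA and below the nearer surroundings. Joining intervals took the H3K4me3 width ratio at NOP56 from 2.14 to 1.03. Ratios for H3K9me3, and for H4K20me3 without a flank or as a median, could not be formed. Depth is unknown, so absence from a list is not absence of the mark.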
